A study of Rattus norvegicus with 12 samples.

Results

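The genes described here are 10 genes of glycolysis and lactate export, Slc2a1, Hk2, Pfkfb3, Pfkfb4, Pgk1, Eno1, Pkm, Ldha, Slc16a3 and Pdk1, chosen by symbol from the 34599 genes counted in infarcted and sham-operated rat hearts. All 10 were in the count table, each as a single locus overlapped by 0 other genes, and all 10 were among the 15101 genes with enough reads to test. RNA was sequenced from the left ventricle of 12 male SD rats, 4 in each of 3 groups, 1 day after surgery. Sham rats had their chest opened without ligation of a coronary artery. MI rats had the left anterior descending coronary artery (LAD) ligated and received no treatment. iCarP+/Light+ rats, called treated rats here, had the same ligation, then an injection of Chlorella, a green alga that makes oxygen in light, into the infarcted wall 10 min later, a patch (iCarP) fixed on the heart with the adhesive CCS@gel, and 3 h of light at 55 mW. Alga, patch, adhesive and light were given together, so their effects cannot be told apart here, and iCarP+/Light- rats were not analysed here.

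Glycolysis splits glucose into pyruvate in the cytosol and yields ATP without oxygen. When oxygen is short, pyruvate is reduced to lactate, which leaves the cell together with a proton through monocarboxylate transporters. The adult heart draws most of its ATP from fatty acid oxidation, takes up glucose mainly through the insulin-responsive transporter Slc2a4 (GLUT4) and carries more of the heart-type lactate dehydrogenase Ldhb than most tissues, whereas activated leukocytes rely strongly on glycolysis. Most of the 10 genes are textbook targets of the hypoxia-inducible factors, which bind the core letters ACGTG or GCGTG in promoters and enhancers of their targets.

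The promoters are shown because the 10 genes are commonly grouped by this control and because most of them were higher in the treated group. RefSeq promoter windows (build GRCr8, 250 bases upstream of a start) were matched for 9 of the 10 genes, all except Pgk1, and Eno1 had 2 windows. Both motifs were searched on both strands, and capitals mark each match (CACGC and CACGT are the reverse strand; CACGTG reads as ACGTG on both strands, so that its 6 letters hold 2 overlapping matches).
Slc2a1: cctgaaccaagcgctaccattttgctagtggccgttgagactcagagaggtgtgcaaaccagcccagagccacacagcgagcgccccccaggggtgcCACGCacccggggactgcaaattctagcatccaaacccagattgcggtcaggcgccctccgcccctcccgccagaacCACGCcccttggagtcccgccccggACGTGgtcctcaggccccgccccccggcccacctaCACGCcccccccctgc
Ldha: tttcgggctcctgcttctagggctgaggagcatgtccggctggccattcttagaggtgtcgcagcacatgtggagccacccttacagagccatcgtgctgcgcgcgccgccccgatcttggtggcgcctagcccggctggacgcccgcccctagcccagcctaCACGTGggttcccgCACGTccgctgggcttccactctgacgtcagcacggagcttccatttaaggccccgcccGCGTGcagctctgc
Pfkfb3: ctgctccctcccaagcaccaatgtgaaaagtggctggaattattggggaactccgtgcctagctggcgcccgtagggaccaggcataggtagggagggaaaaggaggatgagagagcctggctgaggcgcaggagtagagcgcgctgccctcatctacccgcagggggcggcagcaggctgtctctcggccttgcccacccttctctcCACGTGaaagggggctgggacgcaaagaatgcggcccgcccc
Pdk1: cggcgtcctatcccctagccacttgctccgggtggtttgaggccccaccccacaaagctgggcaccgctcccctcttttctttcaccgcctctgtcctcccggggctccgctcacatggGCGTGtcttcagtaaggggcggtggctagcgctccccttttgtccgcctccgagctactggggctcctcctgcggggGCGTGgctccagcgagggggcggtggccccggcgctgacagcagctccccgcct
Slc16a3: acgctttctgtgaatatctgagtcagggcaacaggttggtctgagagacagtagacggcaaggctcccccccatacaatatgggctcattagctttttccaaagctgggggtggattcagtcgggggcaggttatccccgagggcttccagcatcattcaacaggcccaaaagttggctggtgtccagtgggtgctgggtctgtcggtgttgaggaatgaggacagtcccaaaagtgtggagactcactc
These windows lie at chr5:138002272-138002521 (Slc2a1, plus strand), chr1:106507842-106508091 (Ldha, plus), chr17:71944683-71944932 (Pfkfb3, plus), chr3:77113264-77113513 (Pdk1, plus) and chr10:106712078-106712327 (Slc16a3, plus). Slc2a1 and Ldha each held 4 matches, Pfkfb3 and Pdk1 held 2 each, and both Eno1 windows held 1. No match was found in the windows of Hk2, Pfkfb4, Pkm and Slc16a3, which says only that these letters are absent from those 250 bases. Matches occurred in 6 of the 10 windows (60%), against 36.7% of all 33469 promoter windows and 63% of the 12008 windows with at least 10 CG dinucleotides, a class that held 9 of the 10.

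The libraries held 14064414 to 17136958 counted reads each. Levels are given as CPM, read counts relative to the size of the library, scaled by edgeR's TMM method, and CPM per kilobase of gene length where genes are compared with each other. Mitochondrial genes took 22.8% to 28.9% of the counts in Sham rats, 8.52% to 11.5% in MI and 7.14% to 14.2% in treated rats, and the scaling factors were 0.784 to 0.856, 1.15 to 1.26 and 0.960 to 1.05, respectively. Summed markers of cardiomyocytes, among them Myh6 and Tnnt2, ranged from 52637 to 57859 CPM in Sham rats, from 3379 to 7026 in MI and from 2896 to 8328 in treated rats, and all 9 were above 0 in all 12 rats. In bulk tissue, fewer cells of a type and less RNA per cell cannot be told apart.

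The 10 genes together were a larger part of the RNA in each ligated group, and highest in the treated one. They took 0.302% to 0.362% of all counts in Sham rats, 0.581% to 0.860% in MI and 0.947% to 1.62% in treated rats, with no overlap between groups. From MI to iCarP+/Light+, 9 of the 10 genes rose and 0 fell (edgeR's quasi-likelihood test, Benjamini-Hochberg adjusted p below 0.05), where 13.6% of all genes tested were called, 11.6% as higher and 2.01% as lower. Their median change on the log2 scale was 1.04, beside 0.01 for all genes tested. None fell with DESeq2 or limma-voom either, or at an unadjusted p below 0.05 in edgeR. From Sham to MI, 5 rose, 1 fell and 4 did not pass, where 63.8% of all genes were called, 30.2% as higher and 33.6% as lower. Their median log2 fold change was 0.67 (all genes, -0.06), and the 6 called are near the share called among all genes. Pfkfb4 passed the filter on low counts only through the ligated groups, and without it 4 of 9 rose and 1 fell. The middle log2 fold change of those 9 was that of Pgk1, 0.31. From Sham to iCarP+/Light+, 9 rose and 1 fell, beside 66.5% of all genes called (33.5% higher, 33% lower), with medians of 1.75 and 0.02. Without Pfkfb4 8 of 9 rose and 1 fell, and the middle value was that of Pfkfb3, 1.71. Total counts alone as the scaling gave another balance over all genes, with 1204 of 3926 called genes higher from MI to iCarP+/Light+ and 7707 of 10483 from Sham to MI, while 8 of the 10 genes were higher and 0 lower in the former and 7 higher and 1 lower in the latter. The comparisons share rats, since each group enters 2 of them, so their counts are given side by side and are not independent of each other.

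**Figure D1:**
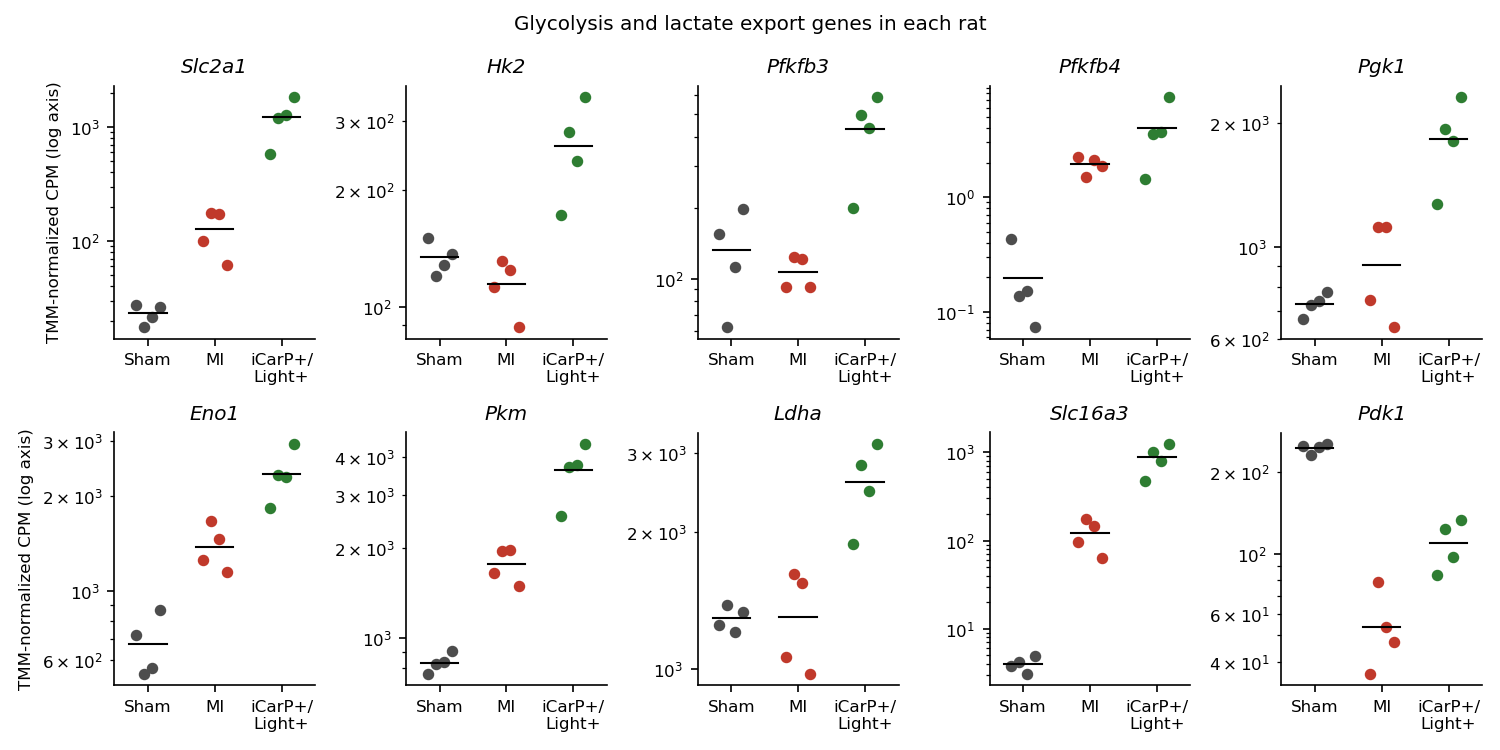
TMM-normalized CPM of the 10 genes in each rat, on log axes that differ between panels, with 1 point per rat and a bar at the mean of 4 rats. In 9 panels every iCarP+/Light+ rat lies above every MI rat, and only the Pfkfb4 panel shows overlap between them; Pdk1 is the gene that is highest in Sham.

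The groups were also set against each other without a test, by asking whether any rats overlapped. From MI to iCarP+/Light+ the same 9 genes lay apart upwards and 0 downwards (12.1% and 4.37% of all genes did). Apart from Sham, 5 lay higher and 1 lower in MI (27.6% and 31.4% of all genes), and 9 lay higher and 1 lower in iCarP+/Light+ rats (31.9% and 31.6%). Without Pfkfb4, which the filter selected for reads in the ligated groups, the higher genes were 4 of 9 and 8 of 9.

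Glucose enters through Slc2a1 (GLUT1, ENSRNOG00000007284, chr5:138154673-138182897 of rn6), the basal and hypoxia-responsive glucose transporter. Its level was 27.4, 17.6, 21.6 and 26.2 CPM in Sham rats 1, 2, 3 and 5, and 100, 177, 174 and 61.3 CPM in MI rats 1, 3, 4 and 5. In iCarP+/Light+ rats 1, 2, 4 and 5 it was 583, 1194, 1273 and 1812 CPM. The 3 groups did not overlap anywhere, and the lowest treated rat stood well above the highest MI rat. Slc2a1 rose 5.52-fold from Sham to MI (log2 fold change 2.46, SE 0.37, edgeR quasi-likelihood adjusted p = 7.58e-05) and 9.49-fold from MI to iCarP+/Light+ (3.25, SE 0.38, adjusted p = 9.17e-05). It was the largest rise from MI among the 10 genes.

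The muscle transporter Slc2a4 showed a different course. It was 398 ± 12.2 CPM in Sham (SD, n = 4), 9.06 ± 3.55 in MI and 12.8 ± 8.19 in treated rats. It fell by 5.46 on the log2 scale from Sham to MI (SE 0.47, edgeR adjusted p = 6.47e-07), and its change from MI to iCarP+/Light+ was 0.50 (SE 0.41, adjusted p = 0.495). The share of Slc2a1 in the summed counts per kilobase of the pair was therefore 5.33% ± 0.881 in Sham, 92.3% ± 4.48 in MI and 98.5% ± 1.68 in treated rats (SD, n = 4). Such shares need no scaling between libraries and are given without a test. The MI range of 85.8% to 95.7% ended just under the iCarP+/Light+ range of 96.0% to 99.8%.

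Glucose is trapped in the cell by hexokinase, of which Hk2 (ENSRNOG00000006116, chr4:113559427-113610243, minus strand) is the muscle and inducible form. It measured 151, 120, 128 and 137 CPM in Sham rats 1, 2, 3 and 5 and 113, 131, 125 and 89.1 in MI rats 1, 3, 4 and 5, and these groups overlapped. In iCarP+/Light+ rats 1, 2, 4 and 5 it was 173, 281, 236 and 344 CPM, above every rat of the other groups. Hk2 rose 2.25-fold from MI to iCarP+/Light+ (log2 fold change 1.17, SE 0.19, edgeR adjusted p = 0.00104). From Sham to MI its value of -0.23 (SE 0.19, adjusted p = 0.306) was 0.35 when libraries were scaled by total counts alone, a scaling that moved the median of all genes from -0.06 to 0.52, so that relative to the median it was -0.17 under both. Hk1, the constitutive form, also rose from MI to iCarP+/Light+ (0.56, SE 0.11, adjusted p = 0.00515), a call that was lost with total counts alone (0.28, adjusted p = 0.0995). The share of Hk2 in the pair was 30.3% ± 2.23 in Sham, 33.0% ± 6.04 in MI and 42.1% ± 5.56 in treated rats, with overlap between neighbouring groups.

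Pfkfb3 and Pfkfb4 encode enzymes that make and break fructose 2,6-bisphosphate, the strongest activator of phosphofructokinase. Pfkfb3 (ENSRNOG00000018911, chr17:70684134-70713726) was 155, 62.3, 112 and 197 CPM in Sham rats 1, 2, 3 and 5 and 92.4, 123, 121 and 91.8 in MI rats 1, 3, 4 and 5, within the Sham range. In iCarP+/Light+ rats 1, 2, 4 and 5 it was 199.8, 497, 435 and 588 CPM, and rat 1 lay only just above the highest Sham rat. Pfkfb3 rose 4.01-fold from MI to iCarP+/Light+ (log2 fold change 2.00, SE 0.35, edgeR adjusted p = 0.00187). Its Sham to MI value was -0.30 (SE 0.34, adjusted p = 0.463), and 0.29 with total counts alone. Against Pfkfb2, the cardiac form, Pfkfb3 made up 79.3% ± 11.3 of the pair in Sham, 94.4% ± 2.51 in MI and 98.1% ± 0.981 in treated rats. Pfkfb2 itself fell by 2.28 (SE 0.29, adjusted p = 1.64e-05) from Sham to MI.

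Pfkfb4 (ENSRNOG00000020656, chr8:117737117-117775386) was the rarest of the 10 genes and passed the filter on low counts only through the 2 ligated groups. Sham rats 1, 2, 3 and 5 had 6, 2, 2 and 1 reads. The limit of detection here was 3 reads, for counting error only, so that 3 of the 4 Sham rats lay under it. By total counts alone, without TMM scaling, 3 reads of a library are 0.175 to 0.213 CPM. That range is not on the scale of the TMM-scaled levels given here. MI rats 1, 3, 4 and 5 had 2.25, 1.51, 2.13 and 1.86 CPM, and iCarP+/Light+ rats 1, 2, 4 and 5 had 1.44, 3.57, 3.73 and 7.39, so that rat 1 lay below all MI rats. Over the 4 rats of a group these were 11 reads in Sham and 148 in MI. Since the filter selected it for reads in the ligated groups, its change from Sham is given only as these reads, and the counts of genes against Sham are also given without it. From MI to iCarP+/Light+ the quasi-likelihood fit gave 1.05 on the log2 scale (SE 0.44, adjusted p = 0.15). Without iCarP+/Light+ rat 1 the latter passed, at 1.33 with an adjusted p of 0.0332. Its values are uncertain, because a second locus annotated as like Pfkfb4 held between 0 and 98 reads per rat, and reads may have been split between both.

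In lower glycolysis, Pgk1 makes the first ATP of the pathway, Eno1 forms phosphoenolpyruvate and Pkm, pyruvate kinase, makes pyruvate and the last ATP. Pkm (ENSRNOG00000011329, chr8:64481172-64502722) was 764, 821, 833 and 908 CPM in Sham rats 1, 2, 3 and 5, 1646, 1954, 1963 and 1490 in MI rats 1, 3, 4 and 5, and 2540, 3705, 3776 and 4418 in iCarP+/Light+ rats 1, 2, 4 and 5. The 3 groups formed separate steps. Pkm rose 2.12-fold from Sham to MI (log2 fold change 1.08, SE 0.17, edgeR adjusted p = 9.07e-05) and 2.05-fold from MI to iCarP+/Light+ (1.03, SE 0.17, adjusted p = 0.00105). Counts per gene do not separate the M1 and M2 splice forms of Pkm.

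Pgk1 (ENSRNOG00000058249, chrX:77263359-77279367) was 670, 722, 739 and 777 CPM in Sham rats 1, 2, 3 and 5. In MI rats 1, 3, 4 and 5 it was 745, 1116, 1117 and 640, which straddled the Sham rats, and in iCarP+/Light+ rats 1, 2, 4 and 5 it was 1272, 1933, 1810 and 2303. Only the treated group lay apart from the others. Pgk1 rose 2.02-fold from MI to iCarP+/Light+ (1.02, SE 0.21, edgeR adjusted p = 0.00525). Its Sham to MI value of 0.31 (SE 0.21, adjusted p = 0.202) passed with total counts alone (0.89, adjusted p = 9.35e-04, of which 0.36 lay beyond the all-gene median) and with only the rats of these 2 groups in the fit (0.45, adjusted p = 0.0489).

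Eno1 (ENSRNOG00000017895, chr5:167288223-167299609) was 723, 544, 567 and 866 CPM in Sham rats 1, 2, 3 and 5, 1250.2, 1663, 1466 and 1146 in MI rats 1, 3, 4 and 5, and 1835, 2335, 2298 and 2939 in iCarP+/Light+ rats 1, 2, 4 and 5. These groups did not overlap, although the gap between the top MI rat and the bottom treated rat was narrow. Eno1 rose 2.05-fold from Sham to MI (1.03, SE 0.19, edgeR adjusted p = 4.03e-04) and 1.70-fold from MI to iCarP+/Light+ (0.77, SE 0.19, adjusted p = 0.0163). The second rise was the smallest of the 9 and the only one that lost its call under an alternative. Among the settings that ended it, the adjusted p was 0.0896 without iCarP+/Light+ rat 5, 0.0507 without MI rat 1, 0.0511 without MI rat 5 and 0.0527 with total counts alone. Eno3, the muscle enolase, fell by 3.21 (SE 0.34, adjusted p = 3.36e-06) from Sham to MI, and Eno1 made up 60.4% ± 5.23 of the pair in Sham, 96.7% ± 1.04 in MI and 98.2% ± 1.06 in treated rats.

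Ldha (ENSRNOG00000013009, chr1:102900286-102909707) encodes the muscle-type subunit of lactate dehydrogenase, which turns pyruvate into lactate. Its level was 1251, 1384, 1204 and 1337 CPM in Sham rats 1, 2, 3 and 5, and 1063, 1619, 1549.8 and 977 in MI rats 1, 3, 4 and 5, a wider spread around the same mean. In iCarP+/Light+ rats 1, 2, 4 and 5 it was 1884, 2820.1, 2472 and 3134 CPM, above every Sham and MI rat. Ldha rose 1.98-fold from MI to iCarP+/Light+ (log2 fold change 0.99, SE 0.19, edgeR adjusted p = 0.00409). Between Sham and MI its value was 0.0090 (SE 0.19, adjusted p = 0.972). With total counts alone it was 0.58 (adjusted p = 0.0106), of which 0.06 lay beyond the median of all genes.

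Ldhb, the heart-type subunit, moved otherwise. It was 3039 ± 269 CPM in Sham (SD, n = 4), 426 ± 119 in MI and 414 ± 196 in treated rats, and it fell by 2.84 from Sham to MI (SE 0.32, edgeR adjusted p = 6.55e-06). Ldha therefore made up 26.4% ± 2.42 of the pair in Sham and 72.0% ± 4.30 in MI, with its own means at 1294 and 1302 CPM, and 83.4% ± 9.13 in iCarP+/Light+ rats. The ranges of the last 2 groups, 66.5% to 76.9% and 71.2% to 92.3%, overlapped. Between Sham and MI it was Ldhb that passed the test, and between MI and iCarP+/Light+ it was Ldha (Ldhb -0.04, SE 0.30, adjusted p = 0.955).

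Slc16a3 (MCT4, ENSRNOG00000036677, chr10:110138586-110148358), the transporter through which glycolytic cells export lactate, spanned the widest range of the 10 genes. Its level was 3.83, 4.23, 3.11 and 4.86 CPM in Sham rats 1, 2, 3 and 5, and 96.6, 177, 147 and 63.3 in MI rats 1, 3, 4 and 5. In iCarP+/Light+ rats 1, 2, 4 and 5 it was 479, 1018, 793 and 1243 CPM. The groups were far apart, and the least of the treated rats was well above the top MI rat. Slc16a3 rose 30.1-fold from Sham to MI (log2 fold change 4.91, SE 0.39, edgeR adjusted p = 3.53e-07), 7.30-fold from MI to iCarP+/Light+ (2.87, SE 0.34, adjusted p = 9.14e-05) and 219.7-fold from Sham to iCarP+/Light+ (7.78, SE 0.43, adjusted p = 2.32e-08). Slc16a1 (MCT1), which carries lactate in both directions, was 236 ± 35.2 CPM in Sham, 139 ± 8.50 in MI and 170 ± 28.0 in treated rats. Slc16a3 was thus 1.99% ± 0.596 of the pair in Sham, 48.4% ± 11.9 in MI and 84.2% ± 7.61 in treated rats, with MI at 33.7% to 61.4% and iCarP+/Light+ at 73.2% to 90.8%.

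Pdk1 (ENSRNOG00000001517, chr3:58530870-58558027) encodes a kinase that switches off pyruvate dehydrogenase and so slows the conversion of pyruvate to acetyl-CoA in the mitochondria. It was the single gene of the 10 that was highest in Sham, with 249, 232, 247 and 254 CPM in rats 1, 2, 3 and 5. It was 36.2, 78.5, 53.6 and 47.1 CPM in MI rats 1, 3, 4 and 5 and 83.3, 124, 97.3 and 133 in iCarP+/Light+ rats 1, 2, 4 and 5, and no groups overlapped. Pdk1 fell 4.56-fold from Sham to MI (log2 fold change -2.19, SE 0.22, edgeR adjusted p = 1.98e-06) and rose 2.03-fold from MI to iCarP+/Light+ (1.02, SE 0.21, adjusted p = 0.00517). It remained 2.25-fold lower in iCarP+/Light+ than in Sham rats (-1.17, SE 0.21, adjusted p = 2.71e-04). Pdk4, the form induced by fasting and fatty acids, had a value of 0.06 from MI to iCarP+/Light+ (SE 0.44, adjusted p = 0.956). Unlike the other pairs, the share of Pdk1 was no higher in treated than in Sham rats. It was 78.4% ± 7.75 in Sham, 64.5% ± 10.5 in MI and 77.6% ± 9.25 in treated rats (SD, n = 4), with overlap between all groups. Pdk3, named after its values were seen, rose in each ligated comparison, from 8.22 ± 0.618 CPM in Sham to 23.9 ± 1.81 in MI and 68.1 ± 19.4 in treated rats (SD, n = 4), with adjusted p-values of 9.52e-06 and 8.33e-05.

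**Figure D2:**
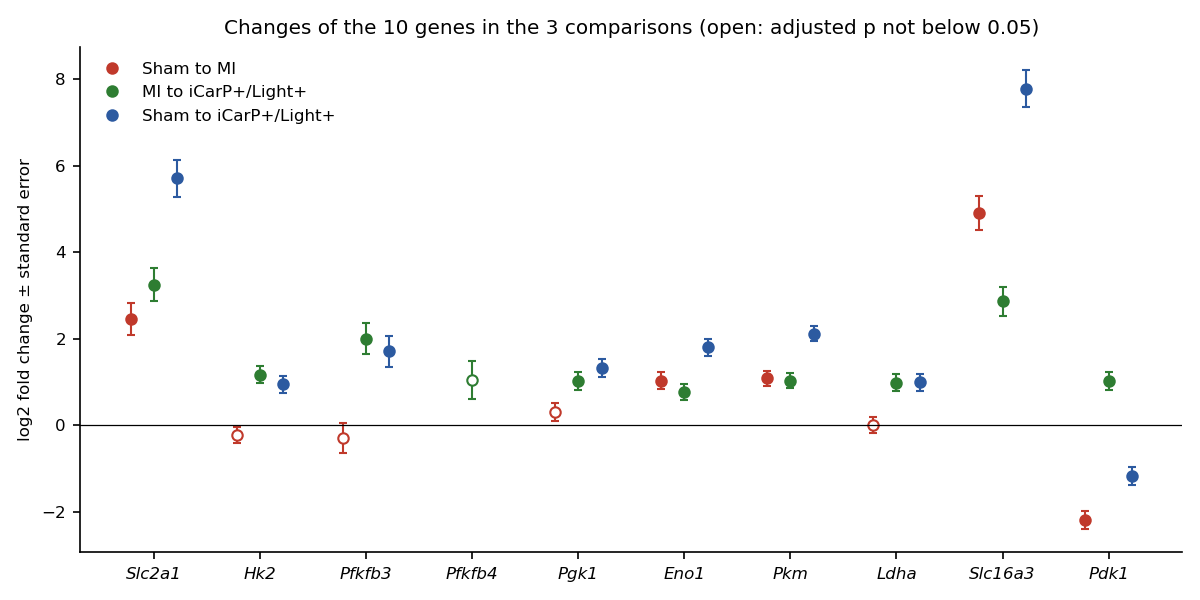
Log2 fold change with its standard error (edgeR, 12 rats) for each of the 10 genes in the 3 comparisons; filled circles passed an adjusted p of 0.05 and open circles did not. Pfkfb4, with too few reads in Sham, is not drawn against Sham. The widest changes are those of Slc16a3 and Slc2a1. Circles for Hk2, Pfkfb3, Pgk1 and Ldha are open only from Sham to MI and that for Pfkfb4 only from MI to iCarP+/Light+, and Pdk1 alone lies below 0 against Sham in both ligated groups.

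Against Sham, 8 of the 9 genes other than Pfkfb4 rose in the treated group, beside 33.5% of all genes tested. Besides Slc16a3, the change was 52.3-fold for Slc2a1, 4.34-fold for Pkm, 3.48-fold for Eno1, 3.26-fold for Pfkfb3, 2.52-fold for Pgk1, 1.99-fold for Ldha and 1.92-fold for Hk2. For Hk2, Pfkfb3, Pgk1 and Ldha, no rise from Sham to MI had passed the test.

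The order of the genes by level per kilobase differed between groups. In Sham, Ldha was the most abundant at 809 ± 50.9 CPM per kilobase (SD, n = 4), followed by Pgk1 at 430 ± 26.2, Pkm at 389 ± 27.6, Eno1 at 357 ± 79.5 and Pdk1 at 156 ± 6.01. Slc2a1 at 8.96 ± 1.73 and Slc16a3 at 1.87 ± 0.342 stood below Hk2 at 24.7 ± 2.40 and Pfkfb3 at 27.9 ± 12.3. In Sham, Pkm and Eno1, and Hk2 and Pfkfb3, differed by less than the larger SD of the pair, whereas Pgk1 was above Pkm in all 4 rats. In MI, Pkm at 824 ± 109, Ldha at 814 ± 206 and Eno1 at 731 ± 122 led within their SD, Pgk1 was at 534 ± 147, and Slc16a3 at 56.4 ± 23.7 and Slc2a1 at 49.4 ± 21.9 followed. In iCarP+/Light+ rats Pkm at 1687 ± 365 and Ldha at 1611 ± 335 led, within each other's SD, before Eno1 at 1244 ± 239 and Pgk1 at 1081 ± 252. Slc2a1 at 469 ± 194 and Slc16a3 at 412 ± 152 came next, above Pfkfb3 at 91.1 ± 35.1, Pdk1 at 69.2 ± 14.6 and Hk2 at 47.5 ± 13.3. Of these neighbours, Pkm and Ldha, Eno1 and Pgk1, Slc2a1 and Slc16a3, and Pfkfb3 and Pdk1 differed by less than the larger SD of the pair, although Eno1 was above Pgk1 in all 4 rats, as Pdk1 was above Hk2. Slc2a1 and Slc16a3 thus stood above Pdk1, Pfkfb3 and Hk2 in treated hearts and below all 3 in Sham.

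**Figure D3:**
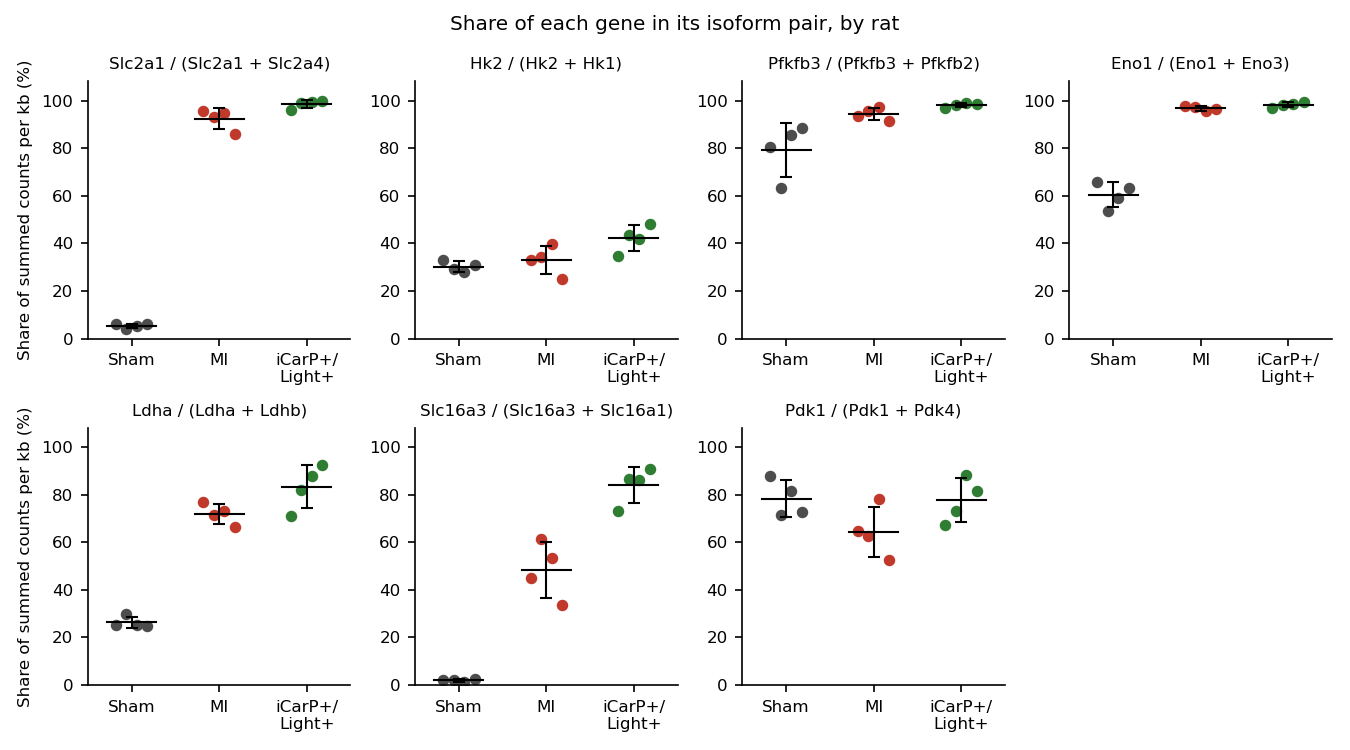
Share of each gene in the summed counts per kilobase of the gene and its isoform partner, in percent, with 1 point per rat and bars at the mean and SD of 4 rats. Slc2a1, Pfkfb3 and Eno1 already made up over 85% of their pair in every MI rat, whereas Slc16a3 passed from 33.7% to 61.4% in MI to 73.2% to 90.8% in iCarP+/Light+ rats.

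The 10 genes varied together within the treated group. iCarP+/Light+ rat 1 had the lowest level of all 10 genes in its group and rat 5 the highest of all 10. In MI, rat 5 was lowest for 8 genes and rat 3 highest for 7. These genes share the library of each rat, so this is a description of the rats and not of separate events.

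Markers of other cells moved with the comparison. From MI to iCarP+/Light+, all 7 tested neutrophil markers (of 8 in the table, among them S100a8, Csf3r and Mmp9) rose, with a median log2 fold change of 3.53. Their sum was 20.1 to 33.0 CPM in Sham rats, 382 to 673 in MI and 3034, 6666, 5941 and 8700.2 in treated rats 1, 2, 4 and 5, so that rats 1 and 5 were again the lowest and the highest. The cardiomyocyte sum ran the other way in these rats, at 8328, 6806, 3922 and 2896 CPM. No marker of the list was at 0 in any rat, and Ngp, the one that was not tested, had at most 14 reads in a rat. Of 7 tested red blood cell markers 4 rose, and their sum was 7951 to 10693 CPM in Sham rats, 2526 to 7036 in MI and 6258 to 17640.0 in treated rats, with overlap between the last 2 groups. Of 7 tested monocyte and macrophage markers 1 rose and 2 fell (428 to 674, 3763 to 6643 and 2828 to 4609 CPM). None of the 9 cardiomyocyte and 5 endothelial markers was called from MI to iCarP+/Light+ by edgeR, DESeq2 or limma-voom (0 and 1 at an unadjusted p below 0.05 in edgeR), and 1 of 6 fibroblast markers was. The part of these cells in the levels of the 10 genes was not tested.

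**Figure D4:**
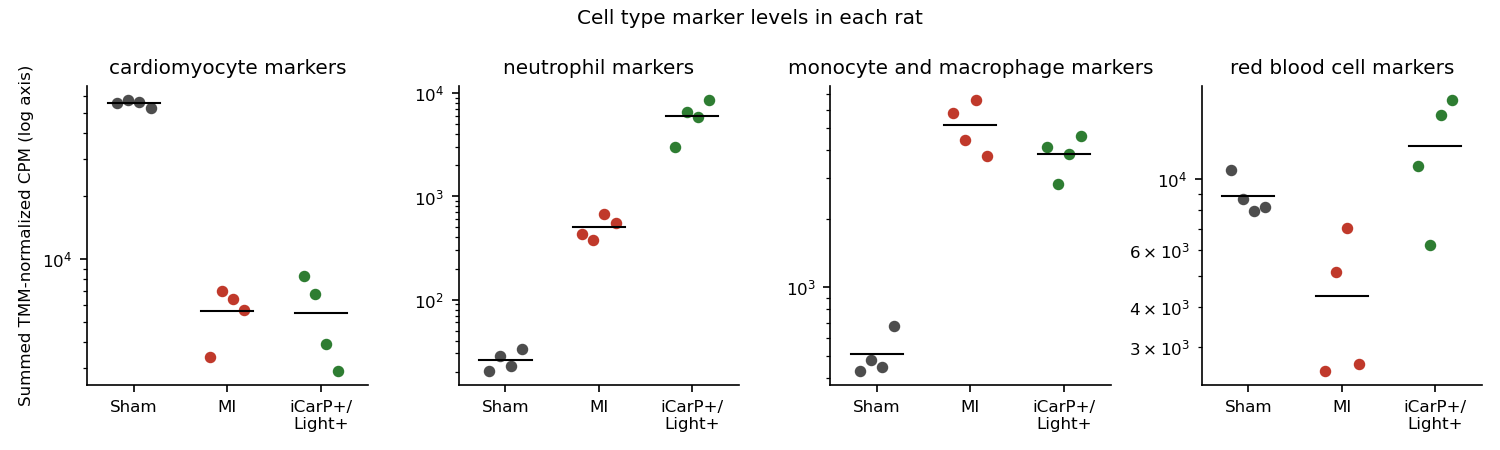
Summed TMM-normalized CPM of 4 marker lists in each rat, on log axes, with bars at the mean of 4 rats. Neutrophil markers stepped up from Sham to MI to iCarP+/Light+ without overlap, and cardiomyocyte markers reached at most 8328 CPM in the ligated groups against at least 52637 in Sham.

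The rest of glucose metabolism was read from lists of 81 other genes, of which 69 were tested. From MI to iCarP+/Light+, where 11.6% of all genes tested were called higher and 2.01% lower, 20 of the 69 rose and 0 fell in edgeR (2 lower at an unadjusted p below 0.05, and 1 lower called by DESeq2 and 0 by limma-voom). With total counts alone the split was 15 higher and 6 lower, under which the median of all genes was -0.25. Among other glycolytic enzymes and regulators 8 of 19 rose, with a list median of 0.55. The largest was Aldoc, an aldolase (2.54, SE 0.47, edgeR adjusted p = 0.00268), at 4.59 ± 3.18 CPM in MI and 26.7 ± 11.9 in treated rats. Gpi (1.26), Pfkl (1.37), Aldoa (1.02), Gapdh (0.93) and Pgam1 (0.99), named after their values were seen, also rose. Pfkm (-0.08), Pgam2 (-0.19) and Eno3 (-0.24) were among those not called.

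Glycogen genes held the largest single change. Of 16 tested 5 rose from MI to iCarP+/Light+ (median 0.34), led by Ppp1r3b, which targets a phosphatase to glycogen and favours its synthesis (3.87, SE 0.28, edgeR adjusted p = 3.48e-06; 23.6 ± 5.07 CPM in MI and 346 ± 116 in treated rats). Pygl, a glycogen phosphorylase that breaks glycogen down, rose as well (2.15, SE 0.33, adjusted p = 6.86e-04). Gys1 (1.81) and Gbe1 (1.31), the synthase and branching enzymes, and Ppp1r3d (1.77) were the other 3, so genes of both synthesis and breakdown were among those called.

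In the pentose phosphate branch 4 of 7 genes rose from MI to iCarP+/Light+ (median 0.65), among them Tkt (0.65) and Taldo1 (0.93). Of 20 other lactate and pyruvate genes Pdk3, Bsg and Emb rose (median 0.06), which is near the share of all genes, and Bsg and Emb encode the chaperones that carry monocarboxylate transporters to the cell surface. The subunits of pyruvate dehydrogenase, Pdha1 (0.29) and Pdhb (-0.22), were not called. None of 5 other glucose transporters (median 0.29) or of 2 gluconeogenic genes (median -0.13) was called by edgeR, DESeq2 or limma-voom (1 and 0 at an unadjusted p below 0.05 in edgeR).

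**Figure D5:**
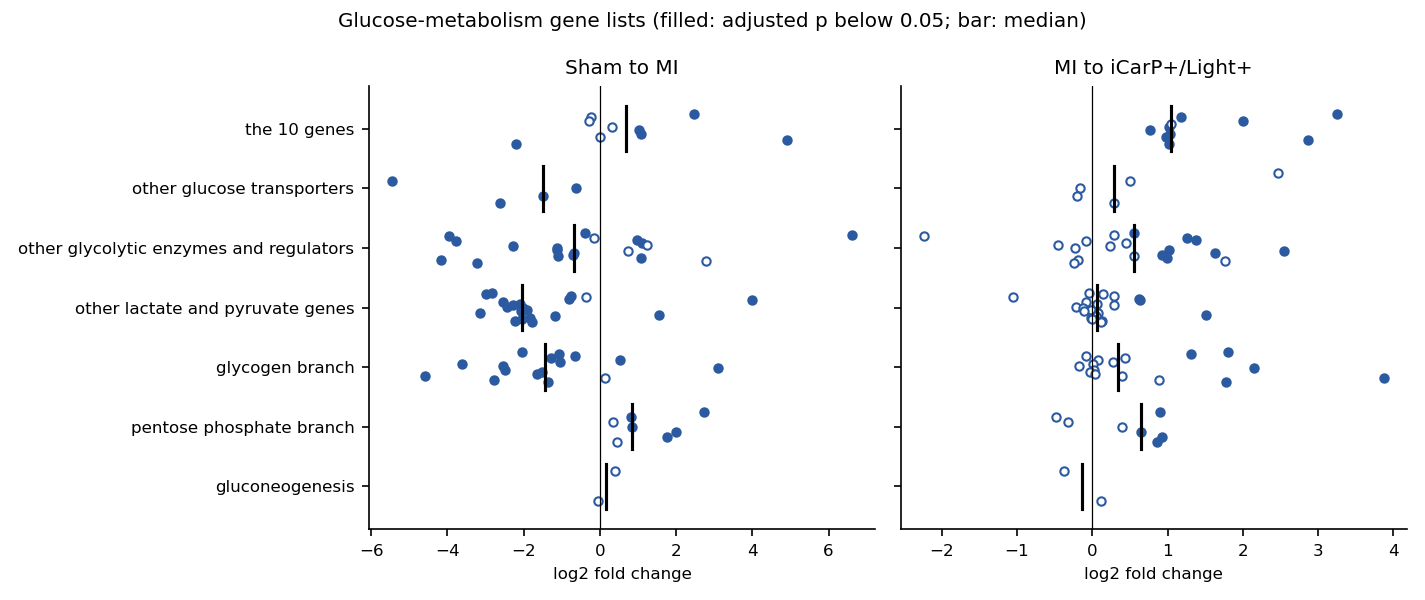
Log2 fold change of each tested gene in the glucose-metabolism lists from Sham to MI (left) and from MI to iCarP+/Light+ (right), with filled circles for an adjusted p below 0.05 and bars at list medians. Pfkfb4 and Slc2a3, with too few reads in Sham, enter the medians but are not drawn on the left. Eno2, with only 0 to 9 reads in Sham rats, is drawn there. The list medians of the 10 genes were 0.67 and 1.04, and those of the other lactate and pyruvate genes -2.03 and 0.06. Without Pfkfb4, the middle value of the first list on the left is 0.31 (Pgk1).

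From Sham to MI the same lists held 13 higher and 45 lower genes of 69 (23 and 37 with total counts alone), beside 30.2% higher and 33.6% lower among all genes tested. Other lactate and pyruvate genes had 17 of 20 lower and a median of -2.03, glycogen genes 13 of 16 lower with -1.45, and other glycolytic genes 11 of 19 lower with -0.68. The deepest falls were those of muscle forms, Slc2a4, Pgam2 (-4.18, edgeR adjusted p = 1e-06) and Pfkm (-3.78, adjusted p = 9.42e-08). The pentose phosphate genes had 5 of 7 higher and 0 lower (median 0.84), where DESeq2 called 6 higher and 0 lower, limma-voom 5 and 0, and edgeR 0 lower at an unadjusted p below 0.05. The highest rises were those of the leukocyte hexokinase Hk3 (6.62, SE 0.28, adjusted p = 1.64e-08), from 1.00 ± 0.377 CPM in Sham to 99.2 ± 20.6 in MI, of Emb (4.00, SE 0.21, adjusted p = 4.01e-08) and of Pygl (3.09, SE 0.36, adjusted p = 7.6e-06). Hk3 was 121 ± 28.0 CPM in iCarP+/Light+ rats, with overlap with MI, unlike Hk2. From Sham to iCarP+/Light+ 20 of the 69 listed genes rose, near the 33.5% of all genes, and 38 fell, beside 33% of all genes. The 20 include Slc2a3 and Eno2 (0 to 9 reads in Sham rats), which passed the filter only through ligated rats, where they are high. The widest changes were those of Hk3 (6.91) and Pygl (5.24) upwards and of Slc2a4 (-4.95), Pgam2 (-4.37) and Pfkm (-3.86) downwards. Slc2a3, the neuronal and leukocyte glucose transporter, had 1 to 10 reads in Sham rats and passed the filter through the ligated rats, where it is high, so its change from Sham is not given. It ranged from 2.07 to 30.4 CPM within the treated group and from 0.112 to 9.28 in MI.

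Genes with the most similar course over the 12 rats were found by the root mean square difference of centred log2 CPM among 10722 genes. For Slc2a1 these were Hilpda (0.29), a lipid droplet protein induced by hypoxia, Nfkbiz (0.32), an inflammatory regulator, and Best1 (0.36). For Ldha they were Bnip3l (0.12), a mitophagy receptor, the glycolytic enzyme Gpi (0.14) and Npepps (0.14). For Slc16a3 the distances were wider, with the chemokine receptor Ccr1 (0.48), Aqp9 (0.50), a glycerol channel, and Trem1 (0.51), a receptor of myeloid cells. Loci annotated as like Ldha, Eno1 and Pkm held 3.77% to 4.61%, 2.83% to 3.98% and 3.38% to 4.22% of the reads of these genes in every rat, and how far these reads belong to the genes themselves was not tested.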

How the data were processed

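The deposited file gave unnormalized counts of reads for each gene and rat, with gene lengths and positions. The submitters' processing notes name HISAT2, featureCounts and rn6, and their versions and the strand setting are not given in the sources used here. edgeR 4.0.16 in R 4.3.3 was used. filterByExpr (minimum count 10) left 15101 of 34599 genes. After TMM scaling, 1 quasi-likelihood fit of all 12 rats, with a mean for each group, served the 3 comparisons. P-values were adjusted by Benjamini and Hochberg over the 15101 genes, and 0.05 was the threshold. The 4 rats of a group are separate animals. Library totals ran from 16806502 to 17136958 (Sham), 14898054 to 16923619 (MI) and 14064414 to 16775369 (iCarP+/Light+). No pair of rats in a group was a copy of the same library (chi-square per gene 14.1 to 114). Log2 CPM used a prior count of 2, and SE is the log2 fold change over the square root of F.

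The 10 genes and all lists were chosen with earlier results of these data known. Beside the 10 genes and their isoform partners, the text names the 3 highest and 3 lowest called genes of the pathway lists with a mean of at least 5 CPM in each comparison, and for Slc2a1, Ldha and Slc16a3 the 3 genes closest in course. Hkdc1, Pgd, Itgam and Pecam1 had no row under these symbols, and a few listed genes are not reported here by name. Alternatives were DESeq2's size factors in edgeR, total counts alone, no filter, at least 10 counts in every sample, DESeq2 1.42.0, limma-voom (limma 3.58.1), leaving out mitochondrial genes, fitting only the compared groups, a replicate block and each rat left out. In simulated data of 15101 genes, 100 were changed 2-fold and 100 were changed 4-fold. There edgeR recovered 57% of 2-fold and 89% of 4-fold changes between MI and iCarP+/Light+, with 2.01% false calls. Far more genes were called in the real data, so these rates need not hold for them. Promoters are from RefSeq (GRCr8), whose coordinates differ from those of the count table. Plots were drawn with matplotlib 3.10.9.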

Additional observations from a re-analysis of the deposited data

Results flagged for a closer look

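In Sham, the share of Ldha in the summed counts per kilobase of Ldha and Ldhb was 29.98% in rat 2, apart from the other 3 rats at 24.98% to 25.41%. The gap to its nearest neighbour took 0.914 of the whole range, above Dixon's 95% critical value for 4 samples. Of 51 groups of 4 rats looked at in this way, 1 stood out, where chance gives about 2.55.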

How the results depend on the processing

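Total counts of genes called in both directions, among the 10 and among the 69 other pathway genes, stayed within 1.5 times the reported value, but not those of 1 direction (13 higher pathway genes from Sham to MI became 23 with total counts alone, and 0 lower from MI to iCarP+/Light+ became 6). Of all genes, 3926 rather than 2051 were called from MI to iCarP+/Light+ with total counts alone. When each rat was left out, all isoform shares moved by less than 1 SD. Genes called among the 10 were 8 to 10 from MI to iCarP+/Light+, 5 to 8 from Sham to MI, and 9 or 10 from Sham to iCarP+/Light+, where at least 10 counts in every sample removed Pfkfb4 from the fit. The rat numbers did not pair the samples: deviations of same-numbered rats correlated between -0.15 and 0.07, and 2 of 6 rats correlated best with their own number from MI to iCarP+/Light+ and 0 of 6 in each other comparison. With the replicate block, 8 of the 10 genes and 1298 rather than 2051 of all genes were called from MI to iCarP+/Light+, and Eno1 was 0.80 with an adjusted p of 0.0729. Signs turned only for values that had not passed the test, apart from Hk1. With total counts alone, the Sham to MI values were 0.19 for Hk1, 0.35 for Hk2 and 0.29 for Pfkfb3, and the MI to iCarP+/Light+ values were -0.23 for Pdk4 and -0.050 for Pfkfb2. Ldha from Sham to MI was -0.022 with limma-voom, -0.014 with the block and -0.11 to 0.13 with a rat left out. From MI to iCarP+/Light+, Ldhb ranged from -0.33 to 0.10 and Pdk4 from -0.17 to 0.32 with a rat left out, and the stricter minimum of 10 counts in each library gave -0.0071 for Pdk4. The fall of Pdk4 from Sham to MI (-1.17, adjusted p = 0.0345) did not pass under 8 settings. The cause of these shifts was not tested.

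With 4 rats a group, edgeR recovered 50% to 57% of simulated 2-fold changes, and smaller ones were not simulated. DESeq2 made 13.7% to 18.3% false calls there. RNA levels in bulk tissue give neither protein, lactate nor flux.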
